A study of Mus musculus with 20 samples.

Results

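Transcript levels of Tardbp, the gene that encodes Tdp-43, were examined together with those of 5 other genes that encode RNA-binding proteins linked to amyotrophic lateral sclerosis (ALS), namely Ewsr1, Taf15, Matr3, Tia1 and Atxn2. The genes were taken by symbol, with earlier results of these data known, and each of the 6 symbols matched a single row among the 39174 genes of the deposited files. All 6 passed the filter on low values in every comparison. The values come from RNA-seq of primary motoneurons of CD-1 mouse embryos (E12.5), grown for 7 d in microfluidic chambers that let axons grow into a separate axonal compartment. The 4 groups were control axonal (n = 4 libraries), control somatodendritic (n = 4), Tdp-43 knockdown axonal (n = 6) and Tdp-43 knockdown somatodendritic (n = 6). Per the study's methods, control cultures received an empty lentiviral vector and knockdown cultures a lentivirus expressing the shRNA shTdp-43.2, so that all groups were transduced and the knockdown rests on a single shRNA. The control libraries had been described in an earlier study and were processed in parallel with the knockdown libraries. The labels name no culture or batch, and p-values here measure only the spread between these libraries, which may in part be technical.

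Tdp-43 is a mainly nuclear protein that binds UG-rich RNA, represses the inclusion of cryptic exons and lowers its own mRNA when it is abundant. Ewsr1 and Taf15 encode RNA-binding proteins of the FET family, which act in transcription and splicing. Matr3 encodes Matrin-3, a nuclear matrix protein that binds RNA and is known to interact with Tdp-43. Tia1 encodes a splicing regulator that helps to form stress granules, and Atxn2 encodes Ataxin-2, a cytoplasmic partner of poly(A)-binding protein that also enters these granules. Mutations or repeat expansions in these genes have been linked to ALS, and aggregates of TDP-43 are found in motoneurons of most patients.

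The shRNA target is shown because it defines the knockdown and can be looked for in every member. It is given 5′ to 3′ as DNA of the sense strand, with capitals for the site that pairs with bases 2 to 8 (the seed) of the complementary strand.
shTdp-43.2 target: gcataatagcaatAGACAGTt
In GENCODE M21 on GRCm38 this sequence matched transcripts of Tardbp alone and was present in 21 of its transcripts. It lies at chr4:148618697-148618717 on the minus strand, in exon 6 of transcript Tardbp-202, and codes for residues between codons 263 and 270. The whole target matched none of the other 5 genes. The 7 letters AGACAGT, searched on the sense strand of the longest coding transcript of each gene, occurred once each in Tardbp, Tia1 and Atxn2 and not in Ewsr1, Taf15 or Matr3. They occurred in 26.3% of 21877 genes searched in the same way.

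Tardbp (ENSMUSG00000041459) spans chr4:148612382-148627019 on the minus strand of GRCm38, Ewsr1 (ENSMUSG00000009079) chr11:5069689-5099266 on the minus strand and Taf15 (ENSMUSG00000020680) chr11:83473086-83506743 on the plus strand. Tia1 (ENSMUSG00000071337) spans chr6:86404219-86433403, Atxn2 (ENSMUSG00000042605) chr5:121711337-121816493 and Matr3 (ENSMUSG00000037236) chr18:35562158-35592045, all on the plus strand. In the annotation 1817 exonic bases of Tardbp overlap exons of Masp2, a complement protease gene on the opposite strand. Whether fragments were counted by strand is not given in the sources used here, so that reads of the overlapping part cannot be told apart. Masp2 itself averaged 0.920 FPKM in control axonal, 0.400 in control somatodendritic, 6.58 in knockdown axonal and 0.967 in knockdown somatodendritic libraries. The overlap between Ewsr1 and Rhbdd3 was 258 exonic bases. Matr3 shared 1754 exonic bases with Gm28285 on the same strand and 310 with AC121821.3 on the opposite strand. Tia1 shared 352 with Gm44790 on the same strand, and Atxn2 shared 99 with Sh2b3 on the opposite strand. Gm28285, AC121821.3 and Gm44790 have no FPKM here. Gm43571, Gm16552 and Gm42866 lie within Atxn2 and Gm36989 within Matr3, without exonic overlap. A processed copy of Matr3, Matr3-ps2, reached at most 4.42 FPKM in any library, so that a small part of the Matr3 reads could also have been assigned to it.

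Levels are FPKM (fragments relative to exon length and to the mapped fragments of a library), which are per length. The files carry no read counts. Depth was read from the 95% interval deposited with each value, and over 680 genes it was 0.53 to 0.675 of the deepest library in control axonal, 0.612 to 1 in control somatodendritic, 0.103 to 0.761 in knockdown axonal and 0.143 to 0.698 in knockdown somatodendritic libraries. Of the motoneuron markers, Chat, Isl2 and Mnx1 were listed at 0 in all 20 libraries. A listed 0 need not mean that RNA was absent, since Rpl13 and Sod1, genes that every cell uses, were each listed at 0 in 1 somatodendritic knockdown library. Those libraries were shallow, with relative depths of 0.143 (Rpl13) and 0.256 (Sod1), whereas Chat, Isl2 and Mnx1 were at 0 in the deepest library too. Whether RNA of these motoneuron markers was absent was not tested. By listed values the 7 motoneuron markers with a row summed to between 0 and 8.9 FPKM per library. Markers of other neurons summed to 145 to 180 FPKM in control somatodendritic, 95.6 to 142 in knockdown somatodendritic, 33.5 to 56.7 in control axonal and 1.9 to 190 in knockdown axonal libraries. Of the 5 tested, 3 were lower at an unadjusted p under 0.05 (limma) in knockdown than in control somatodendritic libraries and none was higher, beside 9.22% of all genes lower, and Gad2 had an adjusted p of 0.0282. Glial markers summed to 147 to 235, 134 to 312, 35.0 to 224 and 20.0 to 483 FPKM in the same order of groups. Of 9 glial markers tested by limma in somatodendritic libraries, Gfap was higher upon knockdown (0.92, unadjusted p = 0.00547) and Olig1 lower (-0.90, unadjusted p = 0.0376), and neither passed an adjusted p of 0.05. Fibroblast, endothelial and immune markers summed to 11 to 24.2, 6.4 to 28.6, 17.4 to 59 and 19.4 to 87 FPKM in that order, with Cldn5 listed at 0 in all 20 libraries. The part of cell composition in the results for the 6 genes was not tested. Fewer cells of a type and less RNA per cell cannot be told apart in bulk libraries.

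In control motoneurons Ewsr1 and Atxn2 were the most abundant of the 6 transcripts in both compartments. Ewsr1 averaged 92.5 ± 12.5 FPKM (SD, n = 4) in the somatodendritic and 92.3 ± 32.0 FPKM (n = 4) in the axonal compartment, and Atxn2 averaged 75.8 ± 40.8 and 86.4 ± 36.4 FPKM. The other members lay between 23.1 FPKM (Taf15) and 39.9 FPKM (Matr3) in somatodendritic and between 13.2 FPKM (Tia1) and 24.6 FPKM (Tardbp) in axonal control libraries. In the order of levels, the ranges of neighbouring genes separated only between Matr3 and Tia1 in control somatodendritic, between Atxn2 and Tardbp in control axonal and between Taf15 and Tardbp in knockdown somatodendritic libraries. In knockdown axonal libraries no neighbours separated, and Tardbp was the lowest of the 6 genes on average in both knockdown groups. The precision behind these levels differed between genes. The deposited interval of Matr3 reached 0 in 1 of 20 libraries, against 4 for Ewsr1, 7 for Atxn2, 9 for Taf15, 12 for Tardbp and 13 for Tia1. Single values of Tardbp and Tia1 are therefore poorly fixed, and statements on them rest on the groups. Fragments implied by the intervals did not follow the FPKM between genes. In control axons Atxn2 had a median of 91.0 FPKM on 9.34 implied fragments and Matr3 one of 22.4 FPKM on 42.9, while their longest coding transcripts have 4472 and 6262 bases. The order of levels between genes therefore holds for FPKM as the authors computed it and was not checked against fragment counts.

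**Figure D1:**
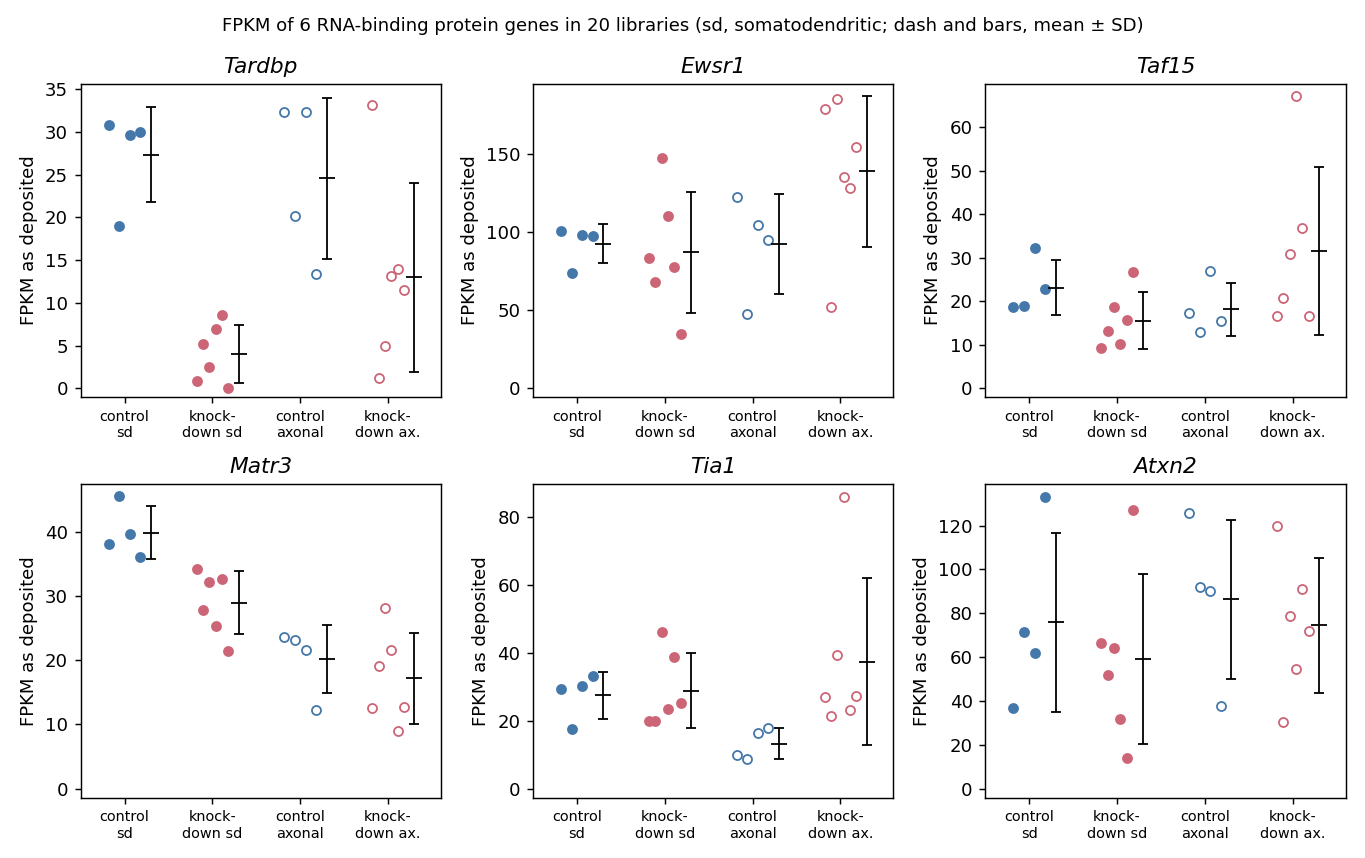
Deposited FPKM (vertical axis) of each member in the 20 libraries, with filled points for somatodendritic and open points for axonal libraries, blue for control and red for knockdown, and a dash with bars for mean ± SD. Somatodendritic Tardbp and Matr3 show knockdown libraries that all lie below the control libraries, and axonal Tia1 shows knockdown libraries that all lie above them.

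Tardbp was examined first, since it is the target of the shRNA. In the somatodendritic compartment its level was 30.8, 19.0, 29.6 and 29.9 FPKM in control replicates 1 to 4. In knockdown replicates 1 to 6 it was 0.820, 5.23, 2.50, 6.97, 8.54 and 0 FPKM. The 2 groups did not overlap, with the knockdown libraries lower throughout. The mean of the 6 listed values was 4.01 FPKM against 27.3 ± 5.55 FPKM (SD, n = 4), or 14.7% of control (exact permutation p = 0.00476, two-sided as are all such tests here; with 6 against 4 libraries no lower p is possible). The value of 0 was found in knockdown replicate 6, which had a relative depth of 0.143 and in which Rpl13, a ribosomal protein gene, was also listed at 0, so that it can be a failed estimate. Without this library Tardbp was at 17.6% of control (exact p = 0.00794). In knockdown replicate 5, with a relative depth of 0.256, the deposited interval ran from 0 to 45.3 FPKM and included all control values. Without both of these shallow libraries Tardbp was at 14.2% of control (exact p = 0.0286, the smallest possible there). By limma on log2(scaled FPKM + 1), Tardbp fell by 3.06 (SE 0.565, adjusted p = 0.0228), and 56 of 13762 genes had a larger fall. A change on this scale understates the change of low values. The adjusted p lay between 0.0617 and 0.0955 without any of control replicates 1, 2, 3 and 4 in turn and was 0.128 with a pseudocount of 0.1, above the threshold in each case. The unadjusted p stayed under 0.05 in all 20 settings.

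In axons the groups overlapped for Tardbp. Axonal control libraries 1 to 4 had 32.4, 20.2, 32.3 and 13.4 FPKM. The axonal libraries labelled knockdown 1 to 6 had 33.2, 1.21, 4.97, 13.1, 13.98 and 11.5 FPKM. Replicate 1 of these lay above every control library, replicates 2, 3, 4 and 6 lay below every control library, and replicate 5 lay between the 2 lowest control values. The mean was 12.99 ± 11.1 FPKM (SD, n = 6) against 24.6 ± 9.39 FPKM (n = 4), or 52.9% ± 45.1 of control (exact permutation p = 0.138). With the axonal libraries scaled to each other by the median of ratios, those labelled knockdown were at 35.1% ± 26.4 of control (exact p = 0.00952), and all but replicate 1 lay below every control library. Tardbp in axonal replicate 1 thus goes against its label, and the axonal results below include it as a library labelled knockdown. Leaving out single libraries moved the deposited level between 36.5% (without knockdown replicate 1) and 62.5% of control (without knockdown replicate 2). Without the libraries under a relative depth of 0.5 the deposited level was 67.4% of control (exact p = 0.4). The limma change was -1.71 (SE 0.628, unadjusted p = 0.0152, adjusted p = 0.427), and its unadjusted p was 0.0511 without control replicate 3. Without knockdown replicate 1 the axonal limma changes were -2.0 for Tardbp, -0.66 for Matr3, -0.84 for Atxn2, 0.91 for Tia1, 0.32 for Taf15 and -0.0038 for Ewsr1, with adjusted p-values of 0.277 or more.

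**Figure D2:**
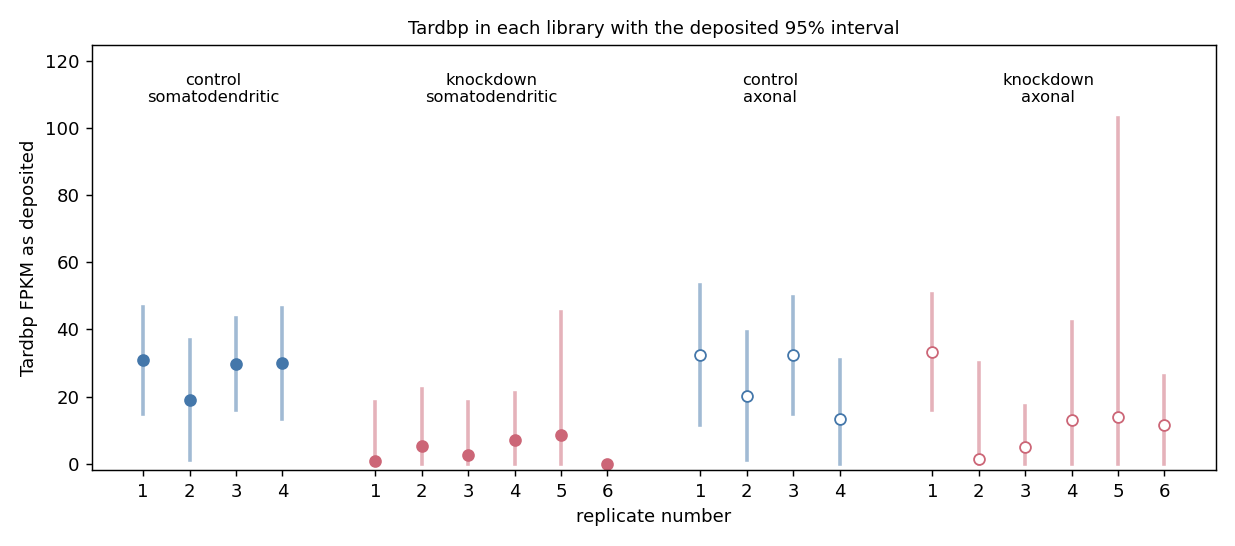
Tardbp FPKM (points) in each library by replicate number, with vertical lines for the deposited 95% interval. Values of the 6 somatodendritic knockdown libraries end at 8.54 FPKM, below the lowest control value of 19.0 FPKM, while axonal knockdown replicate 1 stands at 33.2 FPKM.

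Of the 6 members, only Tardbp passed an adjusted p of 0.05 (limma) upon knockdown in the somatodendritic compartment, where 0.974% of all genes did so. At an unadjusted p under 0.05, 3 of 6 were lower and none was higher, against 13.8% of all genes in either direction and 9.22% lower. The 3 were Matr3, Taf15 and Tardbp, the last being the target of the shRNA. The members were also chosen with earlier results of these data known, so that the count is a description. After scaling all 6 changes were negative, with a median of -0.68 beside -0.13 for all genes tested. With FPKM as deposited 5 of 6 were negative, Tia1 was at 0.032, and the medians were -0.48 and 0.04. The share of calls that are higher depends on the scaling, as 33.2% of the unadjusted calls in this compartment were higher after scaling and 63.0% with FPKM as deposited. In axons none of the members passed an adjusted p of 0.05, against 0.401% of all genes, and 1 of 6 (Tardbp, lower) had an unadjusted p under 0.05, against 8.6% of all genes in either direction and 6.46% lower. The median change of the members in axons was -0.34 beside -0.17 for all genes. The median of the members was 0.18, and that of all genes 0.23, with FPKM as deposited, where 72.8% of the unadjusted axonal calls were higher, against 24.9% after scaling.

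Matr3 was the other member whose somatodendritic groups did not overlap, with knockdown lower, as was so for 1.96% of all genes as deposited and 3.6% on the scaled values. Control replicates 1 to 4 had 38.2, 45.6, 39.7 and 36.0 FPKM. Knockdown replicates 1 to 6 had 34.2, 27.8, 32.2, 25.3, 32.7 and 21.5 FPKM. The gap between the groups was small, from 34.2 FPKM in the highest knockdown library to 36.0 FPKM in the lowest control library. The mean was 29.0 ± 4.93 FPKM (SD, n = 6) against 39.9 ± 4.11 FPKM (n = 4), or 72.6% ± 12.4 of control (exact permutation p = 0.00952). Scaling gave 62.2% ± 8.97 of control (exact p = 0.00476, the smallest possible). By limma the change was -0.67 (SE 0.179) with an unadjusted p of 0.00261 and an adjusted p of 0.102, which misses the threshold. Its unadjusted p stayed under 0.05 in all 20 settings of the analysis and its adjusted p in none. Knockdown and control axons gave Matr3 levels of 17.2 ± 7.11 FPKM (n = 6) and 20.2 ± 5.34 FPKM (n = 4), at 85.2% ± 35.2 of control as deposited (exact p = 0.5). After scaling the axonal value was 58.2% ± 21.1 (exact p = 0.0381), and its limma change was -0.77 (SE 0.429, adjusted p = 0.666).

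Neither FET family gene passed an adjusted p of 0.05 (limma) in either compartment. Somatodendritic Taf15 was 18.6, 19.0, 32.1 and 22.8 FPKM in control replicates 1 to 4 and 9.19, 13.2, 18.6, 10.1, 15.8 and 26.6 FPKM in knockdown replicates 1 to 6. In 5 of 6 knockdown libraries it lay below every control library, with replicate 6, the shallowest of the compartment, as the exception. Replicate 3 did so by a margin within rounding, at 18.56 FPKM against 18.57 FPKM in control replicate 1. It averaged 67.3% ± 27.9 of control (exact permutation p = 0.0952), and 59.1% ± 27.9 after scaling (exact p = 0.0476). Its limma change was -0.80 (SE 0.319, unadjusted p = 0.0276, adjusted p = 0.288). Axonal Taf15 averaged 31.5 ± 19.3 FPKM (n = 6) in knockdown and 18.1 ± 6.08 FPKM (n = 4) in control libraries, with a highest value of 67.1 FPKM in knockdown replicate 4 (exact p = 0.219). The limma change after scaling was 0.13 (SE 0.470, 95% interval -0.86 to 1.13). Ewsr1 averaged 87.0 ± 38.5 FPKM in somatodendritic knockdown libraries, or 94.0% ± 41.6 of control (exact p = 0.762). In axonal knockdown libraries it ranged from 51.8 to 185 FPKM, and 5 of 6 exceeded the highest control library of 122 FPKM, yet after scaling none did. The axonal mean was 151% ± 52.4 of control as deposited (exact p = 0.129) and 101% ± 29.0 after scaling (exact p = 0.948). The limma interval for axonal Ewsr1 ran from -0.76 to 0.85.

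Neither transcript for a stress granule protein passed an adjusted p of 0.05 (limma) in either compartment. Tia1 in control axons was 9.86, 8.68, 16.5 and 17.8 FPKM. Axonal libraries labelled knockdown 1 to 6 had 27.1, 21.5, 39.5, 86.0, 23.1 and 27.3 FPKM. All 6 knockdown values were above all 4 control values, as deposited, and the mean was 283% ± 186 of control (exact permutation p = 0.0524). The 4 control values rested on a median of 0.802 implied fragments (0.375 to 1.65), and their deposited intervals all reached 0. Knockdown replicate 4 stood far above the rest. Groups that do not overlap with knockdown higher were seen for 2.52% of all genes as deposited and for 0.451% on the scaled values, on which Tia1 was not among them. After scaling 3 of 6 lay above every control library and the mean was 198% ± 140 (exact p = 0.176). The limma change was 0.82 (SE 0.455, adjusted p = 0.662). In the somatodendritic compartment Tia1 was 28.9 ± 11.0 FPKM (n = 6) in knockdown and 27.6 ± 6.90 FPKM (n = 4) in control libraries (exact p = 0.843). The limma interval there was -0.78 to 0.43.

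Atxn2 varied most among control libraries of the somatodendritic compartment, with a coefficient of variation of 53.8%. It was 36.9, 71.4, 62.1 and 133 FPKM in control and 66.6, 52.1, 64.1, 31.8, 13.9 and 127 FPKM in knockdown libraries, and the groups overlapped widely (78.1% ± 51.1 of control, exact permutation p = 0.514). In axons the level was 74.4 ± 30.6 FPKM (n = 6) upon knockdown and 86.4 ± 36.4 FPKM (n = 4) in control. The limma changes were -0.70 (SE 0.525) in the somatodendritic and -0.72 (SE 0.412) in the axonal compartment, with adjusted p-values of 0.605 and 0.672.

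**Figure D3:**
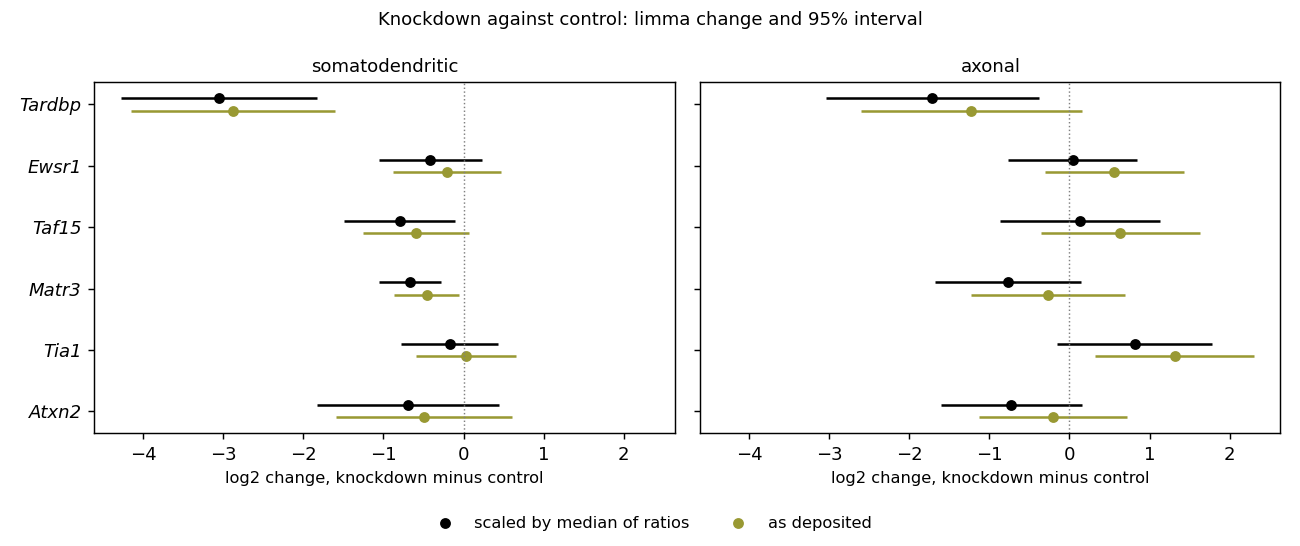
Change upon knockdown (horizontal axis, log2(FPKM + 1), knockdown minus control) by limma with its 95% interval for each member, in the somatodendritic (left) and axonal (right) compartment, in black after scaling and in olive with FPKM as deposited. The interval of somatodendritic Tardbp lies below 0 on both scales, and in axons all 6 values as deposited lie to the right of the scaled ones.

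Axonal and somatodendritic levels were then compared within each condition. In control motoneurons none of the 6 members had an unadjusted p under 0.05 (limma), against 15.4% of all genes, and none passed an adjusted p of 0.05, against 2.1%. Matr3 differed most clearly as deposited. Its axonal libraries had 23.7, 23.2, 21.6 and 12.3 FPKM, all below the somatodendritic range of 36.0 to 45.6 FPKM given above. As deposited 18.7% of all genes had axonal libraries that all lay lower, and 7.65% did on the scaled values, on which Matr3 was not among them. The axonal mean was 50.6% ± 13.4 of the somatodendritic mean (exact permutation p = 0.0286, the smallest that 4 against 4 libraries allow). With all 20 libraries scaled together it was 76.6% ± 22.3 (exact p = 0.0857), 2 of 4 axonal libraries lay below every somatodendritic library, and the limma change was -0.42 (SE 0.330, adjusted p = 0.601). Tia1 averaged 48.0% ± 16.7 of the somatodendritic level in control axons as deposited (exact p = 0.0571), with groups that overlapped. After scaling it was at 72.5% ± 25.3 (exact p = 0.171). Axonal Tardbp was at 89.8% ± 34.3 of the somatodendritic level as deposited and at 138% ± 58.5 after scaling, with exact p-values of 0.714 and 0.314. For Tardbp, Ewsr1 and Taf15 the sign of the limma change in control motoneurons turned with the scaling.

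The same comparison was made upon knockdown. Of the 6 members, 3 were higher in axons at an unadjusted p under 0.05 (limma), namely Tardbp, Taf15 and Ewsr1, and none was lower, against 20.7% of all genes in either direction and 9.52% higher. None passed an adjusted p of 0.05, which 5.35% of all genes did. Tardbp had a limma change of 1.59 (SE 0.555, adjusted p = 0.0964), and 4 of 6 axonal libraries lay above the highest somatodendritic value of 8.54 FPKM. As deposited the axonal mean of Tardbp was 324% ± 276 of the somatodendritic mean (exact permutation p = 0.0563). Taf15 had a limma change of 1.11 (SE 0.362, adjusted p = 0.0753) and an axonal mean of 202% ± 124 (exact p = 0.0498). Ewsr1 had a limma change of 0.95 (SE 0.307, adjusted p = 0.0738), with an axonal mean of 160% ± 55.6 as deposited (exact p = 0.0714) and 188% ± 53.1 after scaling (exact p = 0.0173). Matr3 was the member with the opposite sign. Its axonal values of 12.6, 19.1, 28.2, 21.5, 8.93 and 12.8 FPKM averaged 59.4% ± 24.6 of the somatodendritic mean (exact p = 0.0173), and 70.2% ± 24.7 after scaling (exact p = 0.0368). By limma Matr3 changed by -0.55 (SE 0.270, adjusted p = 0.254). Without both libraries of knockdown replicate 1 the limma change of Tardbp was 1.08 (unadjusted p = 0.0732), that of Taf15 1.16 (0.00578), that of Ewsr1 0.90 (0.0183) and that of Matr3 -0.41 (0.186). Malat1, a nuclear RNA, averaged 382 FPKM in control axonal, 698 in control somatodendritic, 1391 in knockdown axonal and 680 in knockdown somatodendritic libraries, and its part in the axonal values of the members was not tested. Cell type markers also moved with the compartment. Col1a1, a fibroblast collagen gene, averaged 26.4 FPKM in control axonal and 2.66 in control somatodendritic libraries (limma change 3.65, adjusted p = 0.00606), and 30.9 and 2.75 FPKM upon knockdown (3.34, adjusted p = 0.00177). It was the 1 fibroblast, endothelial or immune marker of 5 tested that passed in either condition. The 9 glial and 5 other neuronal markers tested all had negative axonal changes on the scaled log2 values in both conditions, and none passed an adjusted p of 0.05. Mean levels as deposited could go the other way, as Slc1a3, a glial glutamate transporter gene, averaged 151 FPKM in axonal and 112 FPKM in somatodendritic knockdown libraries. The part of these cell types in the compartment values of the members was not tested.

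**Figure D4:**
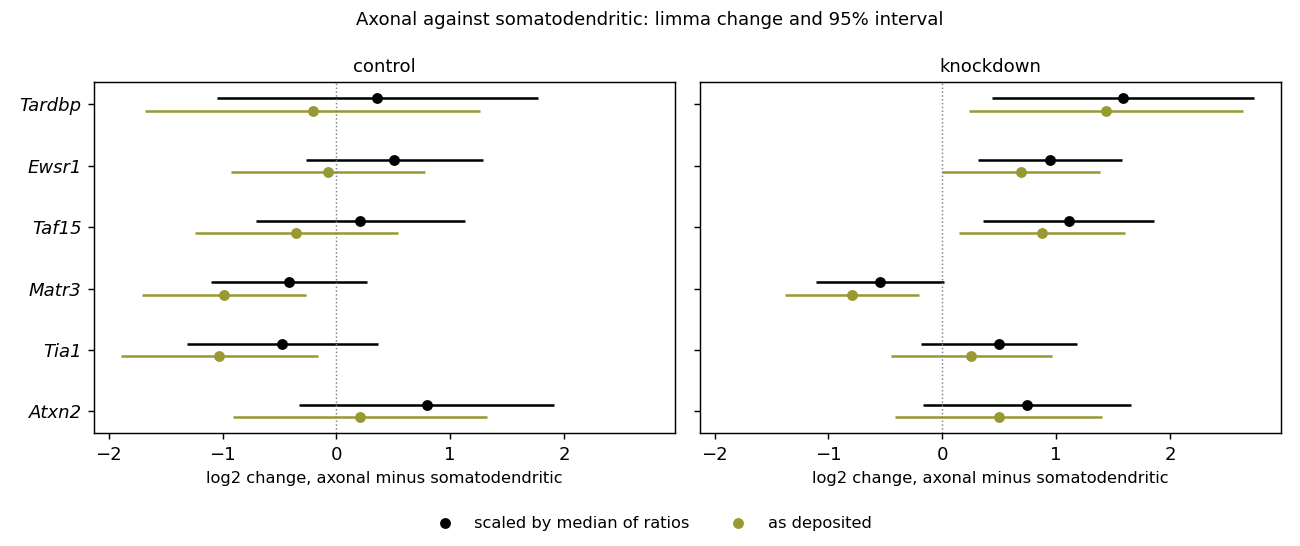
Difference between compartments (horizontal axis, log2(FPKM + 1), axonal minus somatodendritic) by limma with its 95% interval for each member, in control (left) and knockdown (right) libraries, in black after scaling and in olive with FPKM as deposited. Matr3 lies left of 0 in both conditions, and Tardbp, Ewsr1 and Taf15 lie right of 0 in the knockdown libraries.

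Whether the knockdown effect differed between compartments was tested with an interaction contrast. No member had an unadjusted p under 0.05 (limma), which 5.61% of all genes had, and none passed an adjusted p of 0.05, which 0.0711% did. The axonal minus the somatodendritic effect was 1.23 for Tardbp (SE 0.878, unadjusted p = 0.176), with a 95% interval from -0.59 to 3.05. For Tia1 it was 0.97 (SE 0.524, unadjusted p = 0.0765), for Taf15 0.90 (SE 0.572, unadjusted p = 0.129), for Ewsr1 0.44, for Atxn2 -0.05 and for Matr3 -0.13. For Tardbp the 2 effects were thus not separated beyond their error. The exact permutation tests of the 6 members in 4 comparisons made 24 tests on deposited values, of which 5 had p under 0.05, and 24 on scaled values, of which 9 did.

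The wider set of proteins that act with the members was described by 4 gene lists. Among 21 genes for stress granule and translation partners of Tia1 and Atxn2, none passed an adjusted p of 0.05 in either compartment upon knockdown. At an unadjusted p under 0.05 (limma), 2 were higher in somatodendritic libraries and 1 was higher in axonal ones, beside 4.59% and 2.14% of all genes. The median change over the list was 0.12 for somatodendritic and 0.03 for axonal libraries, beside -0.13 and -0.17 for all genes. Fmr1, which encodes the translation regulator FMRP, averaged 5.38 ± 3.16 FPKM (SD, n = 4) in control axons and 19.6 ± 8.69 FPKM (n = 6) in knockdown axons, with a limma change of 1.39 (SE 0.577, adjusted p = 0.505). In the somatodendritic compartment the largest positive limma changes were 0.50 for Fxr2 (SE 0.327, unadjusted p = 0.1485) and 0.44 for Ythdf3 (SE 0.311, unadjusted p = 0.186). Fxr2 and Ythdf3 are thus not the 2 genes counted above as higher. The most negative changes were -0.39 for Serbp1 (SE 0.196) and -0.37 for Ddx3x (SE 0.239).

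Among 20 genes for nuclear partners, mostly hnRNPs, paraspeckle proteins and helicases, Hnrnpa1 was the gene that passed upon knockdown. It averaged 35.3 ± 7.90 FPKM (SD, n = 4) in control and 16.5 ± 3.72 FPKM (n = 6) in knockdown somatodendritic libraries, and fell by 1.26 (limma, SE 0.210, adjusted p = 0.0129). The adjusted p was 0.0521 without control replicate 3 and 0.059 without control replicate 4, and 0.0926 with all 20 libraries in 1 fit. Hnrnpa1 encodes a splicing repressor that binds the C-terminal part of Tdp-43. The related Hnrnpa2b1 was at 75.4 ± 7.76 and 42.9 ± 11.8 FPKM, with a change of -1.05 (SE 0.228) and an adjusted p of 0.0513. At an unadjusted p under 0.05 (limma), 6 of the 20 genes were lower and 2 higher in the somatodendritic compartment, beside 9.22% and 4.59% of all genes. The median was -0.24, and -0.04 with FPKM as deposited. In axons none passed an adjusted p of 0.05, and 2 of 20 were lower at an unadjusted p under 0.05, beside 6.46% of all genes, namely Hnrnpa1 with -1.28 (SE 0.425) and Sfpq, a paraspeckle protein gene, with -1.16 (SE 0.444). Hnrnpl, which encodes another splicing factor, had a positive change of 0.51 (SE 0.137, adjusted p = 0.105) in the somatodendritic compartment.

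Of 9 known targets of Tdp-43 with a single row, 1 rose and 1 fell at an adjusted p of 0.05 in the somatodendritic compartment, beside 0.974% of all genes. At an unadjusted p under 0.05 (limma), 4 were higher and 1 was lower, beside 4.59% and 9.22% of all genes, and the list was chosen with earlier results known. The 4 were Poldip3, Vps4b, Mapt (0.70, SE 0.174, adjusted p = 0.0817) and Sort1 (0.69, SE 0.234, adjusted p = 0.195), the last 2 named after their values were seen. Poldip3, whose splicing depends on Tdp-43, was at 25.3 ± 6.53 FPKM (SD, n = 4) in control and 65.6 ± 14.3 FPKM (n = 6) in knockdown libraries and rose by 1.14 (limma, SE 0.224, adjusted p = 0.0326). This call was lost without any of control replicates 1 to 4 or knockdown replicates 1 to 3, with adjusted p-values between 0.0524 and 0.112, and with all 20 libraries in 1 fit (0.331), and it held in 11 of 20 settings. Nefl, which encodes the neurofilament light chain, was at 95.3 ± 13.3 and 42.3 ± 6.74 FPKM and fell by 1.37 (SE 0.169, adjusted p = 0.00143), a call that was lost with all 20 libraries in 1 fit (adjusted p = 0.0933). In axons Nefl was at 39.9 ± 17.3 and 15.4 ± 13.6 FPKM, with a change of -2.02 (SE 0.469, adjusted p = 0.0907). Vps4b, an endosomal ATPase gene, had a somatodendritic change of 1.16 (SE 0.354, adjusted p = 0.149), and Atg7, an autophagy gene, one of -1.30 (SE 0.655, adjusted p = 0.409). Nefl was also lower in axons than in the somatodendritic compartment upon knockdown, by limma at -1.42 (SE 0.302, adjusted p = 0.00961), as was Mapt, the gene for Tau, at -1.30 (SE 0.309, adjusted p = 0.0172). In control motoneurons the same difference was -0.73 for Nefl (SE 0.370, adjusted p = 0.354) and -1.22 for Mapt (SE 0.378, adjusted p = 0.0988), and the interaction contrasts were -0.69 (unadjusted p = 0.163) and -0.08 (unadjusted p = 0.865), so that neither was shown to differ between conditions. Without the 5 libraries under a relative depth of 0.5 the adjusted p of Nefl in this comparison was 0.075, and that of Mapt was 0.0722 without knockdown replicate 2 and 0.083 without knockdown replicate 6. The median of the 9 targets in that comparison was -0.64 beside -0.05 for all genes. Poldip3, at -0.0073, turned in sign in 4 of 19 settings and Sort1, at -0.11, in 1. From the nuclear partners Ptbp2, a neuronal splicing repressor, was lower in axonal than in somatodendritic knockdown libraries at -1.21 (SE 0.340, adjusted p = 0.0402), a call that held in 7 of 19 settings. It was at -1.13 in control motoneurons (SE 0.417, adjusted p = 0.17), and between knockdown and control axons it changed by -0.24 (SE 0.527, unadjusted p = 0.65).

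Of the 4 nuclear RNAs with a single row, Malat1 alone passed an adjusted p of 0.05, and this in the comparison of axonal with somatodendritic knockdown libraries (limma change 1.31, SE 0.204, adjusted p = 0.00105). Between knockdown and control axons it changed by 1.33 (SE 0.291, adjusted p = 0.0739), and its interaction contrast was 1.59 (SE 0.323, adjusted p = 0.0687). Neat1, the paraspeckle scaffold to which Matr3 and the paraspeckle proteins bind, had changes of 0.17 (SE 0.600) and 0.17 (SE 0.762) upon knockdown in the somatodendritic and axonal compartment, which turned in sign in 4 of 18 and 3 of 20 settings.

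The genes most like each member were sought among 5743 genes averaging 10 FPKM or more, by Pearson's r of log2(scaled FPKM + 1) over the 20 libraries. These correlations are a description, since the libraries share condition, compartment and depth. Tardbp was most like Commd1 (r = 0.85), Rpl13 (r = 0.84) and Igfbp3 (r = 0.82). Matr3 was most like Rnf187 (r = 0.87), Rabac1 (r = 0.85) and Vdac1 (r = 0.83), Ewsr1 like Slmap, Smc1a and Tln1 (r = 0.83 to 0.80), and Atxn2 like Tubb4b-ps1, Sod1 and Cdc20 (r = 0.84 to 0.78). The closest genes of Taf15 (Rps23, Gm13826 and Eif1) and Tia1 (Prpf6, Srebf2 and Krba1) had r of at most 0.76. Among the members themselves the highest values were 0.61 for Tardbp with Ewsr1 and 0.56 for Taf15 with Tia1, and Matr3 stayed at or under 0.21 with each of the others.

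The transcripts were also searched for the repeats that Tdp-43 is known to bind. In the longest coding transcript of each member, the motif TGTGTG (sense strand, overlaps counted) was found 6 times in Tardbp, 4 times in Tia1, 2 times in Matr3 and once in Atxn2, and not in Ewsr1 or Taf15. Per kilobase this was 0.893 in Tia1, 0.802 in Tardbp, 0.319 in Matr3 and 0.224 in Atxn2, beside a median of 0.476 over all coding genes, and Ewsr1 and Taf15 have the shortest transcripts of the 6 (2588 and 2068 bases). The longest uninterrupted TG run had 8 bases in Tardbp and Tia1, a length reached in 21.9% of 21877 coding genes, 6 bases in Atxn2 and Matr3 and 4 bases in Ewsr1 and Taf15. At least 1 such motif was found in 68.0% of these genes, so that its presence does not set the members apart. A match describes letters and is not a binding site.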

How the data were processed

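Total RNA of the axonal and somatodendritic compartment was reverse-transcribed, amplified by PCR and sequenced by the authors, so that fragments exceed the original molecules. The authors deposited FPKM with a 95% interval for each gene and library, made with Cufflinks 2.2.1 on GRCm38 per the labels; the mapping and annotation release are not given in the sources used here. Reads were not available, so depth was taken as a number of fragments implied by each interval (2 SD per side, 680 genes, each above 3 such fragments throughout).

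Scaling used the median of ratios, computed from the genes that reached 1 FPKM in each library of a fit (7619 somatodendritic, 5112 axonal, 4577 for all 20). Genes averaging 1 FPKM or more were tested on log2(scaled FPKM + 1) with limma 3.58.1 (R 4.3.3, lmFit, eBayes with a trend) and Benjamini-Hochberg adjustment over all genes. Knockdown was tested within each compartment (10 libraries), and compartments and the interaction in a fit of 4 groups. Single levels were compared by exact permutation of deposited FPKM. Named genes are the members, the 3 genes most correlated with each, the 2 largest changes each way per list and comparison and those at an adjusted p under 0.05, and genes that overlap a member or copy it. Members and lists were chosen with earlier results of these data known. Of the lists, Park2 and Rian had several rows and Slc18a3 and Kcnq1ot1 had none, so they were left out. Alternatives were no scaling, quantile normalization, a pseudocount of 0.1 or 5, a minimum mean of 5 FPKM or none, a replicate block, all libraries in 1 fit, no libraries under a relative depth of 0.5, and each replicate number of a condition left out with both of its libraries. The shRNA target came from the study's oligonucleotide list and was matched, like the motifs, to GENCODE M21 transcripts. Python 3.11.15 was used with pandas 2.3.3 and scipy 1.17.1.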

Additional observations from a re-analysis of the deposited data

Results flagged for a closer look

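Of 24 groups of values, each a member in 1 group of libraries, 3 held a library far from the others by Dixon's criterion, which chance exceeds in about 1 of 20 groups. Control somatodendritic replicate 2 had the lowest Tardbp (19.0 FPKM) and the lowest Ewsr1 (73.8 FPKM) of its group. In this library the deposited interval of Tardbp ran from 1.10 to 37.0 FPKM and its relative depth of 0.612 was the lowest of the group. Axonal knockdown replicate 4 had the highest Tia1, at 86.0 FPKM with an interval from 17.1 to 155 FPKM and a relative depth of 0.316. The part of depth in these values was not tested.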

How the results depend on the processing

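The counts of genes at an adjusted p under 0.05 moved with many choices, and the cause was not tested. With FPKM as deposited they were 233 in place of 134 (somatodendritic knockdown) and 579 in place of 295 (compartments, control). Pseudocount 0.1 gave 30 in place of 56 (axonal knockdown) and 181 in place of 295, pseudocount 5 gave 212 in place of 134 and 483 in place of 295, and no filter gave 495 in place of 753 (compartments, knockdown). Without shallow libraries the compartment counts were 1058 and 370, and with all 20 libraries in 1 fit the knockdown counts were 61 and 236. Leaving out 1 replicate number of a condition with both of its libraries (below, without a replicate) gave 58 to 198, 37 to 70, 21 to 487, 310 to 958 and, for the interaction (10), 10 to 17.

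Members at an adjusted p under 0.05 upon somatodendritic knockdown numbered 1, and 0 with pseudocount 0.1, the block or without any control replicate (0 to 1 without a replicate). At an unadjusted p under 0.05 the 1 axonal member became 3 with all libraries in 1 fit and 0 to 3 without a replicate. The control compartments gave 2 in place of 0 as deposited (0 to 1 without a replicate), and the interaction 2 as deposited and 1 with quantile normalization (0 to 1). In the knockdown compartments 0 became 1 at an adjusted p without knockdown replicate 2 (Tardbp, 0.0445) or 3 (Ewsr1, 0.0473). Called genes of the 4 pathway lists upon somatodendritic knockdown were 3, and 6 as deposited, 0 in the fit of 20 libraries and 1 to 5 without a replicate. For axonal knockdown 0 became 1 as deposited and 3 in the fit of 20 (0 to 1). The control compartments gave 4 as deposited and 3 without shallow libraries (0 to 1), the knockdown compartments 2 to 5 around 4, and the interaction 1 as deposited (0 to 1).

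Axonal Tardbp, at 52.9% of control as deposited, was 35.1% after scaling and 36.9% after quantile normalization, and 36.5% to 62.5% without a replicate. Without shallow libraries it was 67.4% of control (exact p = 0.4). None of the changes of the 6 genes that turned in sign passed an adjusted p of 0.05 in any setting. They were Tia1 (somatodendritic knockdown, 0.032 as deposited), Ewsr1 (axonal knockdown, -0.26 to 0.26 without a replicate), Taf15 (axonal knockdown, -0.36 without shallow libraries and -0.12 to 0.36 without a replicate), Ewsr1 (-0.075), Taf15 (-0.35) and Tardbp (-0.21) between control compartments as deposited, and in the interaction Matr3 (0.19 as deposited, 0.011 after quantile normalization, -0.30 to 0.027) and Atxn2 (0.28 as deposited, 0.11 without shallow libraries, -0.73 to 0.46).

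The replicate numbers gave no sign of pairing, judged on each library's deviation from its group mean, gene by gene. These deviations correlated between -0.04 and 0.04 for same-numbered libraries across compartments and between -0.01 and 0.07 across conditions. By the same measure 1 of 10 axonal libraries was most like its own number. With a replicate block the counts were 18, 35, 120 and 400, with 0 called members, 3 axonal members at an unadjusted p under 0.05 and 0 called list genes upon somatodendritic knockdown (adjusted p = 0.0991 for Tardbp, 0.0756 for Hnrnpa1, 0.0543 for Nefl and 0.148 for Poldip3). Tardbp was then at 14.2% of control in the somatodendritic compartment (exact p = 0.125, the smallest that 4 pairs allow), and axonal Ewsr1 changed by -0.090.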
